A study of Mus musculus with 2 samples.

Results

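Smooth muscle cluster 11 is a group of 257 aortic cells that the authors placed in their smooth muscle class (SMC) and gave the cluster number 11. The markers named for this cluster are Actn2, Abra, Hspb1, Casq1 and Gadd45g, and not all of them were highest in it, as given below. Its members were taken by those 2 deposited labels alone, 1 entry per cell barcode. They made up 104 cells of the ApoE library and 153 cells of the DKO library, out of 5943 SMC cells and 7917 cells in all. The remaining 5686 SMC cells, 1432 of the ApoE library and 4254 of the DKO library, served as the reference within each library. The study profiled dissociated mouse aortas by droplet single-cell RNA sequencing, which counts unique molecular identifiers (UMIs, 1 per captured transcript) near the 3′ end of each mRNA. The ApoE library came from Apoe−/− mice, and the DKO library from EC-iDKO/Apoe−/− mice, an inducible double knockout in endothelial cells on the same Apoe−/− background. All mice thus lacked Apoe and all ate western diet for 12 weeks. The deleted genes are not named in the labels; from knowledge of the line they are the endocytic adaptors Epn1 and Epn2, and the deletion is not directed at smooth muscle. The labels give neither the driver of the deletion nor the age of the mice nor how many aortas went into a library. There was 1 library per genotype, so cells of 1 library are not replicates, and no comparison here carries a test.

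Smooth muscle cells of the aortic wall contract through actin and myosin filaments anchored at dense bodies, the counterpart of the Z-disc of striated muscle. Small heat shock proteins such as Hspb1 bind actin filaments and unfolded proteins, and larger chaperones of the Hsp70, Hsp40 and Hsp90 families refold them with ATP. The transcription factor HSF1 switches on many of these chaperone genes when unfolded proteins accumulate. Immediate early genes are switched on within minutes of a stimulus, and enzymatic dissociation of tissue is itself a known stimulus for both groups. The reference cells for cluster 11 came from the same libraries, and the part of dissociation in the differences below was not tested.

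Cluster 11 cells were smooth muscle by their markers. The sum of 7 smooth muscle markers stood at 57259 UMIs per 1000000 (CPM) in ApoE cluster 11 and 50776 in the other ApoE SMC, and at 60512 and 52354 in the DKO library. None of 7 T cell markers had a UMI in either library of the cluster. Of 10 endothelial markers, 8 had no UMI in the cluster in either library, among them Cdh5, Tie1, Vwf and Cldn5. Their sum was 71.5 CPM against 72.5 in the other ApoE SMC and 48.1 against 104 in the DKO library, where endothelial cluster 9 had 2442 and 4355 CPM. The 10 macrophage markers reached 38.1 CPM in ApoE cluster 11 and 10.5 in DKO cluster 11, below the 136 and 15.1 CPM of the other SMC. Adgre1 and Fcgr3 had no UMI in the cluster. Of 12 skeletal muscle markers 6 were in the table, and they gave 6 UMIs in each library of the cluster, 6.92 CPM against 7.09 in the other ApoE SMC and 12.6 against 7.26 in the DKO library. Of 11 cardiomyocyte markers 4 were in the table. With Tnni3 at 0, they had 53.1 CPM against 75.6 in the ApoE library and 140 against 138 in the DKO library. The cardiomyocyte median log2 ratio was -0.56 over the 2 markers with at least 20 UMIs in the ApoE library and 1.18 over 3 in the DKO library, with no marker called. The adipocyte list had 186 CPM in DKO cluster 11 against 1551 in the other DKO SMC, with Adipoq, Plin1 and Cidec at 0 in the cluster in both libraries, and 183 against 184 CPM in the ApoE library. Pericyte markers had 2953 against 2890 CPM in the ApoE and 2245 against 1996 in the DKO library, Schwann and neural markers 809 against 791 and 870 against 661, and chondrocyte-like markers 140 against 332 and 98.3 against 112. Erythroid markers gave 5 and 2 UMIs in the cluster, and cycling markers 3 and 2.

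Depth per cell moved with the cluster and with the library. The median cluster 11 cell had 8112 UMIs in the ApoE library (range 2261 to 22141) and 3288 in the DKO library (503 to 7188), against 4382 and 758 UMIs in the other SMC. The median number of genes was 2732 and 1575, against 1865 and 490. Clusters 12 and 17 of the ApoE library, at 8615 and 9038 UMIs, and cluster 17 of the DKO library, at 3012, had a like depth. No cluster 11 barcode occurred in both libraries, while 5 barcodes of the series did. No doublet caller was run, and the part of depth or doublets in the differences below was not tested beyond the comparison at matched depth. Intervals below are at the 95% level and cover counting error only, not the spread between mice or dissections.

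Cluster 11 made up 6.77% of ApoE SMC cells (exact Clopper-Pearson interval 5.57 to 8.14) and 3.47% of DKO SMC cells (2.95 to 4.06). Of all cells it made up 4.28% (3.51 to 5.17) and 2.79% (2.37 to 3.26). The order turned once cells below 1000 UMIs, or at 10% or more of mitochondrial UMIs, were set aside. The share was then 8.37% of 1207 ApoE SMC cells (6.87 to 10.07) and 9.31% of 1439 DKO SMC cells (7.86 to 10.93). Of the other DKO SMC cells 32.6% had 1000 UMIs or more, and of the DKO cluster 11 cells 90.2%, so these data give no stable order of the libraries for the size of the cluster.

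Among its 5 markers, Hspb1 and Gadd45g were called higher in cluster 11 than in the other SMC in both libraries. A gene was called higher or lower when its CPM ratio to the other SMC reached 1.5 either way and its interval excluded 1, among genes with at least 100 UMIs over both populations and a mean of at least 50 CPM. The cluster was itself made from these counts, so ratios describe it and support nothing further. Of the 5 markers, 3 were called higher in each library. By this rule 41 of 2940 genes were higher in the ApoE library (1.39%) and 106 of 3067 in the DKO library (3.46%). Hspb1, on chr5:135887919-135889563 (GRCm38, plus strand, a protein-coding gene), stood at 1903 CPM in ApoE cluster 11 and 936 CPM in the other ApoE SMC, a ratio of 2.03 (1.93 to 2.15). The DKO levels were 2590 and 1223 CPM, a ratio of 2.12 (1.99 to 2.25). The cluster held the highest Hspb1 level of the 13 SMC clusters with at least 20 cells in both libraries. The next cluster had 1173 CPM in the ApoE library (cluster 16) and 1940 in the DKO library (cluster 5).

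Gadd45g, on chr13:51846678-51848468 (plus strand), encodes a stress sensor that halts the cell cycle and activates MAP kinases. It stood at 1167 CPM in ApoE cluster 11 and 655 in the other ApoE SMC, a ratio of 1.78 (1.67 to 1.91). The DKO levels were 1356 and 774 CPM, a ratio of 1.75 (1.61 to 1.90). Cluster 11 was again the highest of the 13 clusters in both libraries. Against the closest SMC cells, given below, Gadd45g had ratios of 1.36 and 1.25 and was called in neither library.

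The muscle genes that name the cluster were sparse and less even. Actn2 (chr13:12269426-12340760, minus strand), the α-actinin of the Z-disc, gave 23 UMIs in ApoE cluster 11, or 26.5 CPM against 15.9 in the other ApoE SMC, which was under the minimum level of the rule. The DKO cluster gave 35 UMIs, 73.2 CPM against 26.9, a ratio of 2.72 (1.82 to 3.97), and was called higher. Cluster 11 ranked first of 13 for Actn2 in the DKO library and was in the third place in the ApoE library, where cluster 16 led with 28.6 CPM. Abra (chr15:41864076-41869720, minus strand), an actin-binding activator of SRF signalling, stood at 181 CPM against 95.4 in the ApoE library, a ratio of 1.90 (1.59 to 2.26). The DKO cluster stood at 62.8 CPM against 29.6, from 30 UMIs, under the minimum. For Abra the cluster was in the second place in the ApoE library, behind cluster 16 at 210 CPM, and in the third in the DKO library. Casq1 (chr1:172209894-172219868, minus strand), a calcium store protein of the sarcoplasmic reticulum, stood at 61.1 CPM against 43.2 in the ApoE library, and at 54.4 against 23.5 in the DKO library. The first was under the ratio of 1.5 and the second under the minimum, though cluster 11 ranked first in both. Cluster 11 therefore did not rank first for Actn2 and Abra in both libraries, while it did for Hspb1, Gadd45g and Casq1. For Casq1 the ApoE lead was within counting error, at 61.1 CPM (45.8 to 80.0) against 58.5 in cluster 2.

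**Figure D1:**
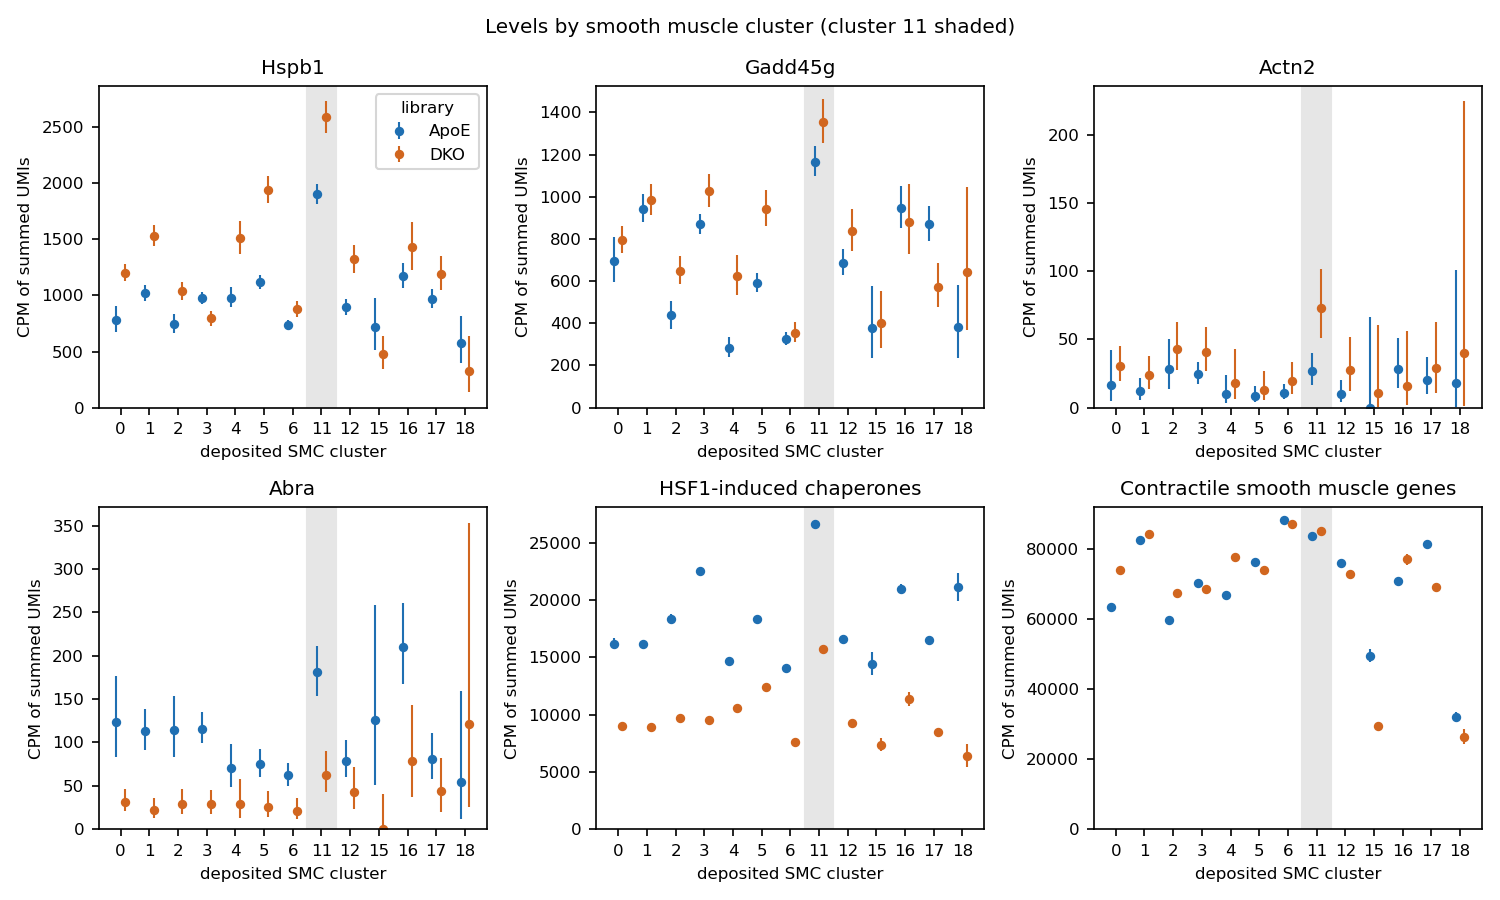
Level of 4 markers and of 2 summed gene lists (y axis, CPM of summed UMIs) in the 13 SMC clusters with at least 20 cells in both libraries (x axis), with ApoE in blue, DKO in orange and bars for the exact Poisson interval of counting error. Cluster 11 (shaded) is highest in both libraries for Hspb1, Gadd45g and the HSF1-induced chaperones, and second to cluster 6 for the contractile genes; the Actn2 and Abra intervals overlap those of other clusters.

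Per cell, a UMI of Hspb1 was found more often in cluster 11 than in the other SMC. With every cell of at least 1000 UMIs thinned to 1000 UMIs, a UMI of Hspb1 was found in 78.8% of 104 ApoE cluster 11 cells (69.7 to 86.2) and in 54.3% of 1336 other SMC cells (51.6 to 57.0), before thinning 99.0% and 85.4%. The DKO shares were 84.8% of 138 cells (77.7 to 90.3) and 64.1% of 1385 (61.5 to 66.6), before thinning 98.0% and 62.0%. The thinned share was 54.3% and 69.5% in endothelial cluster 9 and 30.2% and 60.0% in immune cluster 13, at median depths before thinning of 2160 and 1357 UMIs and of 4783 and 1174. A UMI of Hspb1 was thus found in cells of all these populations, and cluster 11 had the highest share. The DKO endothelial share rested on 59 cells (56.1 to 80.8) and the DKO immune share on 15 (32.3 to 83.7). Both intervals overlapped that of DKO cluster 11. Whether the UMIs came from the cells themselves was not tested.

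Actn2 was found in 3.85% of ApoE cluster 11 cells (1.06 to 9.56) against 1.20% of the other SMC and 3.19% of endothelial cells. These ApoE shares rested on 4 of 104 cluster 11 cells and 3 of 94 endothelial cells (0.66 to 9.04), so their order was not resolved. The immune share was 0.72% of 139 cells. In the DKO library the cluster 11 share was 8.70% (4.57 to 14.70), against 2.38% of the other SMC and 1.69% of endothelial cells. It was 0% of 15 immune cells. Whether these UMIs came from the cells themselves was not tested. Without thinning, Actn2 was found in 18.3% of ApoE and 19.6% of DKO cluster 11 cells. The other SMC then had 7.26% and 3.03%, and endothelial cells 6.25% and 1.39%, both at lower depth. At 1000 UMIs per cell, 44 of 104 ApoE and 79 of 138 DKO cells of the cluster carried exactly 2 of the 5 markers (42.3% and 57.2%), against 24.7% of the other ApoE SMC and 31.8% of the other DKO SMC. No marker was found in 6.73% and 4.35% of the cluster's cells, against 24.7% and 19.6%. Of the cluster's cells, 12 and 9 carried 3 markers, 1 in each library carried 4, and none carried all 5.

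The genes called higher in both libraries were mostly chaperones and stress-response regulators. There were 13 of 2706 genes tested in both (0.48%), and no gene was called in opposite directions. Beside Hspb1 and Gadd45g they were the chaperones Dnajb1, Hspa1a, Hspa1b, Hspa8, Dnaja1 and Ahsa2, the transcription factor Atf3, the calcineurin inhibitor Rcan1, the G-protein signalling brake Rgs2, the EGF receptor inhibitor Errfi1 and the EGF receptor ligand Hbegf. Ahsa2 was the lowest-ranked of the 13 and is outside the rule for naming.

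Dnajb1, an Hsp40 co-chaperone on chr8:83608193-83612653 (plus strand), stood at 1234 CPM in ApoE cluster 11 and 621 in the other ApoE SMC, a ratio of 1.99 (1.86 to 2.13). Its DKO levels were 289 and 119 CPM, a ratio of 2.42 (1.99 to 2.91). The intervals of the 2 ratios overlapped although the DKO level was far lower in both populations. Hspa1a, an inducible Hsp70 on chr17:34969190-34972156 (minus strand), stood at 2727 against 1590 CPM in the ApoE library and at 868 against 416 in the DKO library. Its ratios were 1.72 (1.64 to 1.79) and 2.09 (1.88 to 2.32). Hspa1b, on chr17:34956436-34959238 (minus strand), had ratios of 1.62 and 2.12, but the 2 genes are near-identical copies and the split of UMIs between them is uncertain. Hspa8, the constitutive Hsp70 on chr9:40800984-40810087 (plus strand), stood at 5668 against 3416 CPM in the ApoE library and at 3632 against 2200 in the DKO library, ratios of 1.66 and 1.65. Dnaja1, another Hsp40 on chr4:40722150-40737149 (plus strand), had ratios of 1.61 and 1.81. Cluster 11 had the highest level of Dnajb1, Hspa1a and Hspa8 in both libraries, and for Hspa1b and Dnaja1 cluster 18 was higher in the ApoE library.

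The signalling genes of the group gave like ratios. Atf3, on chr1:191170296-191218039 (minus strand), stood at 2137 CPM against 1149 in the ApoE library, a ratio of 1.86 (1.77 to 1.95), and at 1075 against 644 in the DKO library, a ratio of 1.67 (1.52 to 1.83). Rcan1 (chr16:92391953-92470867, minus strand) stood at 192 against 103 CPM and at 138 against 60.4, ratios of 1.85 (1.56 to 2.19) and 2.29 (1.72 to 2.99). Rgs2 (chr1:143999338-144004161, minus strand) stood at 112 against 64.1 CPM and at 121 against 64.2, ratios of 1.75 (1.39 to 2.17) and 1.89 (1.41 to 2.51). For Atf3, Rcan1, Rgs2 and Errfi1 the cluster held the highest level of the 13 clusters in both libraries. Errfi1 had ratios of 1.73 and 1.84 and Hbegf of 1.59 and 1.51, with cluster 12 above cluster 11 for Hbegf in the DKO library.

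Promoter sequence is shown for 4 of these genes because their windows hold the short heat shock motif given below, and for Actn2 because it gives the cluster its name. The sequences are RefSeq's on GRCm38.p6, the 250 bases before a listed transcription start, written on the gene's own strand. Capitals mark the heat shock element searched for, GAANNTTC or TTCNNGAA, each of which reads the same on both strands.
Hspb1, chr5:135887669-135887918, plus strand: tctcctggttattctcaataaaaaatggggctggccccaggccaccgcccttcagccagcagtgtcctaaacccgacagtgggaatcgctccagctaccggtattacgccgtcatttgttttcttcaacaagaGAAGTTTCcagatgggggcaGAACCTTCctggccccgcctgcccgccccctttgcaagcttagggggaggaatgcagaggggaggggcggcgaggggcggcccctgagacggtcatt
Hspa1a, chr17:34972157-34972406, minus strand: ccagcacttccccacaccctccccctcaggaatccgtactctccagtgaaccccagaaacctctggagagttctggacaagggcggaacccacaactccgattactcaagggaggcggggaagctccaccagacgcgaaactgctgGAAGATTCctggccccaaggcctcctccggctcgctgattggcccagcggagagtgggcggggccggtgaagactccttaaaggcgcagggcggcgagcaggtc
Dnaja1, chr4:40722218-40722467, plus strand, 1 of 3 listed starts: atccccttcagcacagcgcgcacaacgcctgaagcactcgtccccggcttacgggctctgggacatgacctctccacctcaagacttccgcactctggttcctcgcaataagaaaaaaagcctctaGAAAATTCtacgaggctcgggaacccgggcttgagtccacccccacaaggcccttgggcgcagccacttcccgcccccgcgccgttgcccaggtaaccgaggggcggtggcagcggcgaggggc
Rcan1, chr16:92466170-92466419, minus strand, 1 of 2 listed starts: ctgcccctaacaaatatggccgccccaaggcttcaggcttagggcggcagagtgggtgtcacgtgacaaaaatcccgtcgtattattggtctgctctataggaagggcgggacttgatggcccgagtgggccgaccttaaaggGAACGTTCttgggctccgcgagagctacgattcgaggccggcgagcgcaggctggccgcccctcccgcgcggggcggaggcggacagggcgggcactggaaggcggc
Actn2, chr13:12340733-12340982, minus strand: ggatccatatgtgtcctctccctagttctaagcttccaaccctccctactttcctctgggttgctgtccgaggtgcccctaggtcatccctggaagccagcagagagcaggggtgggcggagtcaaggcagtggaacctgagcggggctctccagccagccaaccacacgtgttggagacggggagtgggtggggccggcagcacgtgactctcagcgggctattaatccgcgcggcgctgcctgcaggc
The element began 97 and 117 bases before the start in Hspb1, 104 bases before in Hspa1a and Hspa1b, 124 bases before in Dnaja1 and 107 bases before in Rcan1. Of the 12 named genes higher in both libraries, 10 had a promoter in the table and 5 of these (50%) held the element, all listed starts of a gene being searched. It was in 14.5% of the 27025 genes with a promoter and in 12.1% of the 2621 tested genes with one. These letters were not in the windows of Dnajb1, Gadd45g, Atf3, Rgs2 or Errfi1, nor in those of Actn2 and Casq1. Hspa1a and Hspa1b, near-identical copies, were counted as separate genes. A match is a description of the sequence and not evidence of binding. The same windows were searched on both strands for the MCAT element CATTCC, the AP-1 site TGANTCA, the CArG box and the MEF2 site. Of the 10 genes, 3 held an MCAT element (14.4% of all), 1 an AP-1 site (7.82%), 1 a MEF2 site (0.592%) and 0 a CArG box (1.62%). The MCAT element of Hspb1 lay outside the capitals.

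Of the HSF1-induced chaperones, many were called higher in cluster 11 and none lower. All 21 genes of the list were in the table and 19 passed the minimum in each library. In the ApoE library 6 were called higher and 0 lower; the median log2 ratio was 0.38 over all 21, against -0.10 over all genes with at least 20 UMIs. The DKO library had 13 higher and 0 lower, and a median of 0.66 against -0.01. Hsph1, an Hsp110 exchange factor for Hsp70, had ratios of 1.40 in the ApoE and 2.27 in the DKO library, and Hsp90aa1, the inducible Hsp90, of 1.45 and 1.79. Both were just under the threshold in the ApoE library and above it in the DKO library. The difference between the libraries was not tested. Bag3, a co-chaperone of autophagy, was called in the ApoE library at 1.61 and had 1.45 in the DKO library, while the chaperonin Hspd1 was not called in either, at 1.31 and 1.44. The list summed to 26653 CPM in ApoE cluster 11, where the highest other cluster had 22496, and to 15734 in DKO cluster 11, where the highest other had 12376.

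**Figure D2:**
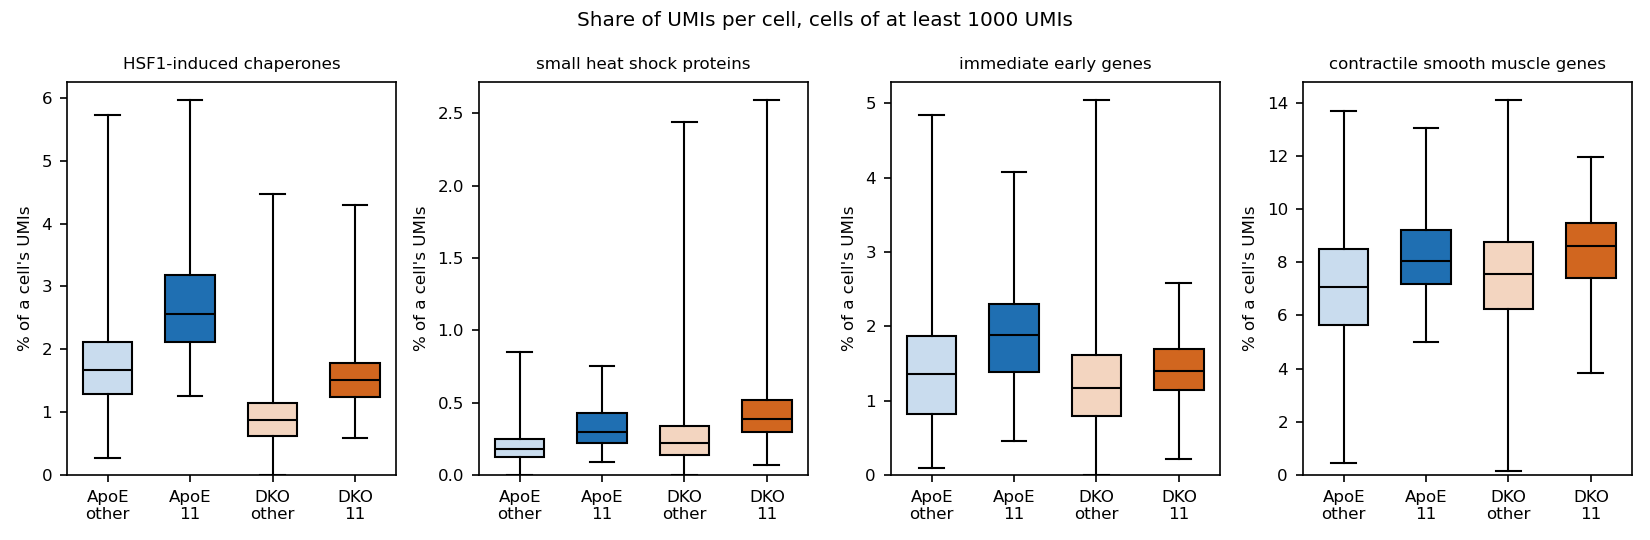
Share of a cell's UMIs that came from each of 4 gene lists (y axis, percent) in cells of at least 1000 UMIs, for the other SMC and cluster 11 of each library; the line is the median over cells, the box the middle quartiles and the whiskers the lowest and highest cell. For the HSF1-induced chaperones the median is 2.57% in ApoE cluster 11 against 1.67%, and 1.51% in DKO cluster 11 against 0.869%.

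Against all other SMC, the chaperone shift ran through nearly all cells of the cluster. Against the closest SMC cells, given below, the list's median log2 ratio was 0.16 in the ApoE library and 0.81 in the DKO library. Of 104 ApoE cells, 97 had a chaperone share above the median of the other ApoE SMC, and of 138 DKO cells with at least 1000 UMIs 136 did. The ranges still overlapped, since single cells of the other SMC reached 5.73% and 4.48%. Across the cells of the cluster, the chaperone share and the Hspb1 share had a Spearman correlation of 0.54 in the ApoE library (104 cells) and 0.43 in the DKO library (153 cells), as a description of values that share a library and a cell total. Chaperone and immediate early shares had 0.02 and -0.22, weak values in sparse counts.

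Small heat shock proteins other than Hspb1 were called only in part. Of 7 genes, 6 were in the table, and 5 passed the minimum in the ApoE and 6 in the DKO library. Hspb1 and Hspb8 were called higher in the ApoE library and Hspb1 alone in the DKO library. The median log2 ratios were 0.34 and 0.35. Hspb8, a partner of Bag3, had ratios of 1.51 and 1.38. Cryab, the αB-crystallin of muscle, had 1.39 and 1.27. Hspb6, a cGMP and cAMP kinase substrate of smooth muscle, had 0.978 and 1.00, so the family did not move as a block.

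Immediate early genes had calls mostly in the ApoE library, a difference between libraries that was not tested. Of 28 genes, 23 passed the minimum in each library; 6 were higher in the ApoE library and 1, Atf3, in the DKO library, and none was lower. Their median log2 ratios were 0.31 and 0.28. In the ApoE library the called genes were Atf3 (1.86), Csrnp1 (1.73), Ier5 (1.72), Nr4a1 (1.68), Ier2 (1.60) and Dusp1 (1.51). Ier2 had 1.03 and Csrnp1 1.08 in the DKO library. Fos, an AP-1 subunit, had 1.34 and 1.22, and Junb, another, 1.12 and 0.841. Cluster 11 did not have the highest immediate early level. The list summed to 18659 CPM in ApoE and 14379 in DKO cluster 11, where cluster 3 had 22401 and 20248.

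Contractile genes were high in cluster 11 without single genes passing the threshold. Of 18 genes, none was called higher in either library; Des, the intermediate filament desmin, was lower in the ApoE library at 0.631 (0.446 to 0.870) and had 0.861 in the DKO library. The median log2 ratios were 0.05 and 0.18. Acta2, smooth muscle α-actin, had ratios of 1.17 and 1.21, Myh11, the smooth muscle myosin heavy chain, 0.919 and 1.09, and Cnn1, the actin regulator calponin, 1.27 and 1.24. The sum reached 83551 and 85060 CPM, second to cluster 6 at 88081 and 87022.

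The wider sarcomere programme around Actn2 was called in a few genes. Of 28 Z-disc and sarcomere genes, 22 were in the table and 13 passed the minimum in each library. In the ApoE library Abra and the stretch-responsive Ankrd1 (1.75) were higher. In the DKO library Actn2, the actin-binding Xirp1 (2.15), Flnc, an actin crosslinker (1.82), and the calcineurin-binding Myoz2 (1.82) were higher. None was lower, and the medians were 0.18 and 0.24. Flnc had 0.915 in the ApoE library, on the other side of 1, and Xirp1 had 1.31. The sarcoplasmic reticulum and calcium list, which holds Casq1, had no called gene of 13 and 12 tested, and medians of -0.08 and 0.23. SRF and MRTF targets had 2 of 22 tested genes higher in the ApoE library, Abra and Ankrd1. In the DKO library 2 of 20 were higher, Ccn2 (1.52) and Filip1l (1.63). None was lower, and the list medians were 0.11 and 0.24.

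Among the other lists, extracellular matrix genes stood at different levels in the 2 libraries. In the ApoE library 0 of 34 members with at least 20 UMIs had a ratio above 1, where 38.8% of all genes with as many UMIs did. The median log2 ratio was -0.25, and 1 of 29 tested genes was called, Col5a2, lower at 0.652. In the DKO library 22 of 33 were above 1, where 48.4% of all such genes were. The median there was 0.05, and 2 of 29 tested genes were higher, Col6a1 (1.58) and Col6a2 (1.86). Eln, the elastin of the aortic lamellae, stood at 1110 CPM against 1640 in the ApoE library and at 1151 against 928 in the DKO library. Cluster 11 thus had about the same Eln level in both libraries, and the other SMC did not. The difference between libraries was not tested. The fibroblast marker list stood at 584 CPM in ApoE cluster 11 against 895 in the other SMC and at 441 against 471 in the DKO library, and the modulated smooth muscle list at 1456 against 2242 and 1523 against 2200. Both lists were thus lower in the cluster together with the matrix genes in the ApoE library. Both hold Lum and other genes of matrix proteins, among them Col1a1 and Fn1, so the lists are not independent. In the DKO library the modulated smooth muscle list was lower where the matrix median was not. The fibroblast list, from 211 UMIs in the DKO cluster, was near the level of the other SMC. Their part in the result was not tested.

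Of all genes tested, 1.39% were higher and 1.26% lower in the ApoE library, and 3.46% and 1.96% in the DKO library. TGF-β targets had 1 of 11 tested genes higher in the ApoE library, Id3 (1.61). In the DKO library 3 of 11 were higher, among them Id1 (1.98) and Id2 (1.80), and the 2 medians were 0.21 and 0.31. The Id proteins restrain basic helix-loop-helix factors. Unfolded protein response genes had 2 of 12 tested higher in the ApoE library, Dnajb9 (1.60) and Atf4 (1.57). None of 14 was higher in the DKO library, where both stood near 1, at 1.01 and 1.05. The list medians were -0.06 and 0.14. In the Gadd45 and growth arrest list, Cdkn1a, the cell cycle inhibitor p21, was higher in the ApoE library at 1.71 and had 0.993 in the DKO library. Ddit3, a stress transcription factor, was lower in the DKO library at 0.428 and had 1.48 in the ApoE library. That list had 2 of 9 tested genes higher in the ApoE library, and 1 of 12 higher and 1 lower in the DKO library. Its medians were 0.04 and -0.17. The NF-κB list, with 2 genes tested in the ApoE and 4 in the DKO library, had 1 call. This was the leukocyte adhesion molecule Vcam1, lower at 16.7 CPM against 128 in the DKO library. In the ApoE library Vcam1 stood at 8.08 CPM against 47.0, under the minimum. Its list medians were -0.49 and -0.11. Interferon response genes, 6 tested in each library, had Irf1 higher in the ApoE library (1.70). In the DKO library Ifitm3 (0.501) and H2-K1 (0.640) were lower. The list medians were -0.19 and -0.41.

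The remaining lists had at most 1 called gene in each library. Glucocorticoid response genes had Errfi1 in both, of 4 tested in each, with medians of -0.02 and -0.11. Hox genes had Hoxb4 in the DKO library, the only 1 tested, and 0 tested in the ApoE library, with medians of 0.06 and -0.36. No gene was called in 9 further lists. Their medians in the ApoE and the DKO library were 0.06 and 0.18 for chaperonin and tubulin genes, 0.02 and -0.01 for oxidative stress genes, -0.03 and 0.01 for the proteasome, and 0.04 and 0.02 for glycolysis. They were -0.02 and 0.14 for focal adhesion genes, 0.08 and 0.12 for the Notch pathway, and -0.10 and 0.40 for potassium channels. Nuclear-encoded oxidative phosphorylation genes had 0.06 and 0.09, and mitochondrially encoded genes -0.29 and -0.04. Against all other SMC, HSF1-induced chaperones were thus called higher where no proteasome or chaperonin gene was. Against the closest SMC cells, given below, the ApoE library had 0 of 19 HSF1-induced chaperones and 1 of 27 proteasome genes called higher. The DKO library had 13 of 17 and 2 of 22.

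Few genes were lower in cluster 11 in both libraries. The count was 37 of 2940 in the ApoE library (1.26%), 60 of 3067 in the DKO library (1.96%) and 4 of 2706 in both (0.148%). The rule undercounts lower genes near the minimum level, because a lower level in the cluster also lowers the mean. Of the 4, AY036118 and Gm42418 overlap ribosomal RNA and, with the predicted gene Gm26917, are read here as signs of RNA quality and not as protein-coding genes. AY036118 stood at 496 CPM against 907 in the ApoE library, a ratio of 0.547, and at 425 against 1282 in the DKO library, a ratio of 0.331. Its log2 ratio in the ApoE library was 0.07 when cells of matched depth were compared, so that difference moved with depth. The fourth, Abcc1, a drug and leukotriene exporter, stood at 43.8 CPM against 67.1 and at 37.7 against 62.4, ratios of 0.654 and 0.604. In the list of RNA quality genes 3 of 6 tested were lower in the ApoE library and 1 of 6 in the DKO library. The list medians were -0.41 and -0.33. Lars2, which also carries reads of ribosomal origin, had 0.382 and 0.710, and Meg3, a nuclear RNA, 0.507 and 0.794.

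Some genes were called in the DKO library and lay on the other side of 1 in the ApoE library. Bdh1, an enzyme of ketone body metabolism, had 2.58 in the DKO and 0.888 in the ApoE library, the serine protease Htra3 2.10 and 0.952, and the BMP antagonist Chrdl1 1.90 and 0.974. Col6a2 and Flnc, given above, belong to the same group. In the other direction, Sncg, a synuclein, had 0.286 in the DKO and 1.41 in the ApoE library, Fabp4, a fatty acid carrier of adipocytes and endothelium, 0.295 and 1.04, and Mff, a mitochondrial fission receptor, 0.490 and 1.04. Fabp4 moved with the adipocyte marker list of the other DKO SMC, whose part in it was not tested. Mga, a partner of Max, was lower in the ApoE library, at 0.520 against 1.41 in the DKO library.

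Cells of like depth kept the direction of the 12 named genes higher in both libraries. Within each library, cluster 11 cells and other SMC cells between the lower and upper quartile of the cluster's UMI totals were compared, 52 against 314 cells in the ApoE library (medians 8112 and 8165 UMIs) and 77 against 439 in the DKO library (3288 and 2941). All 12 named genes stayed above 1 in both libraries; 11 were called higher in the ApoE library and 9 in the DKO library. Their median log2 ratio was 0.84 and 0.92.

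The closest cells gave a narrower picture. In a coarser clustering that the authors also deposited, 97 of 104 ApoE and 141 of 153 DKO cells of cluster 11 lay in 1 cluster together with 224 and 250 other SMC cells, nearly all of deposited cluster 3 (215 and 241). These had medians of 5454 and 2673 UMIs. This comparison was chosen after the values had been seen. Against them, 29 of 2959 genes were higher in the ApoE library (0.98%) and 97 of 1884 in the DKO library (5.15%), and 6 of 1866 in both (0.322%). Hspb1 kept its place, at 1903 CPM against 1027 in the ApoE library, a ratio of 1.85 (1.73 to 1.99), and at 2590 against 811 in the DKO library, a ratio of 3.19 (2.88 to 3.54). Rgs2 was also called in both, at 1.57 and 1.83. The calls of the other 10 named genes ended in the ApoE library. There Dnajb1 had 1.11, Hspa1a 1.16, Hspa1b 1.12, Hspa8 1.40, Dnaja1 1.31, Errfi1 1.35, Rcan1 1.47, Hbegf 1.17, Atf3 1.08 and Gadd45g 1.36. In the DKO library the chaperones stayed higher, with Dnajb1 at 1.85, Hspa1a at 1.93, Hspa8 at 1.75 and Dnaja1 at 1.87, while Atf3 had 1.02 and Gadd45g 1.25. For the HSF1-induced list 0 of 19 were called in the ApoE library, with a median log2 ratio of 0.16, and 13 of 17 in the DKO library, with a median of 0.81. The difference between the libraries was not tested. In the ApoE library, then, no tested gene of the HSF1-induced list passed the threshold against the neighbours. Hspb1, which was counted in the small heat shock protein list and not in that one, did. Whether HSF1 acts on Hspb1 here was not tested.

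**Figure D3:**
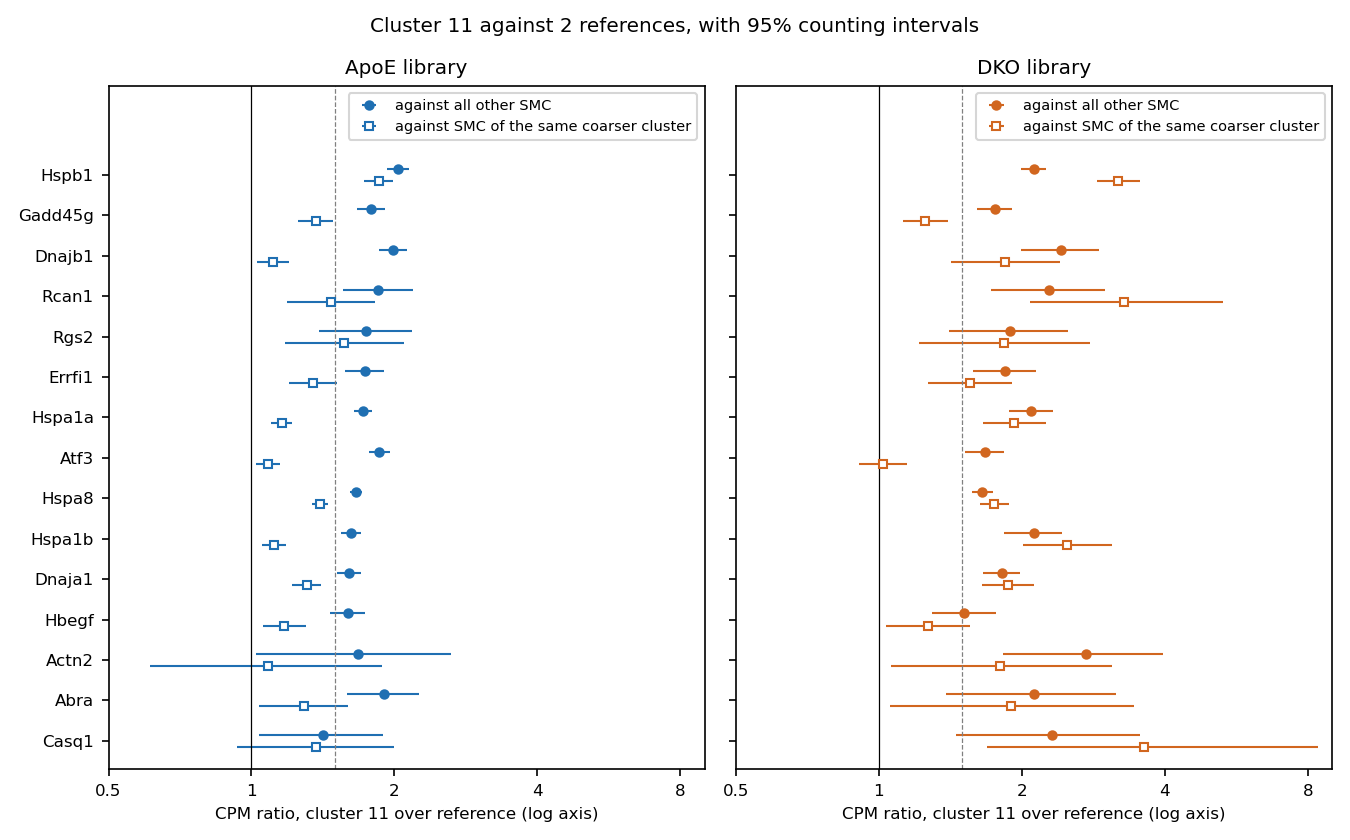
CPM ratio of cluster 11 (x axis, log scale) for the 12 named genes higher in both libraries and the 3 other markers, against all other SMC (filled circles) and against SMC cells of the same coarser cluster (open squares), with intervals of counting error; the dashed line is the ratio of 1.5. Hspb1 stays right of the dashed line under both references in both libraries, while Dnajb1, Hspa1a, Hspa1b and Atf3 move close to 1 in the ApoE library.

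The other genes called higher against these neighbours in both libraries were Actg2, an enteric smooth muscle actin (1.57 and 1.88), the proteasome subunit Psmb2 (1.61 and 1.81), the deubiquitinase Uchl1 (1.55 and 1.79) and the hypoxia-induced Fam162a (1.60 and 1.70). Lower in both were 12 genes (0.643% of 1866), with 114 of 2959 lower in the ApoE library (3.85%) and 104 of 1884 in the DKO library (5.52%). Among them were Neat1, Kdm6b, Junb, Dleu2, Abi3bp, Irf2bpl, Dennd4a, Ripk1, Chd2, Npepps and Rin2. Neat1, the RNA scaffold of nuclear paraspeckles, stood at 511 CPM against 1166 in the ApoE library and at 856 against 1534 in the DKO library, ratios of 0.438 and 0.558. Kdm6b, a histone H3 demethylase, had 0.389 and 0.386. Junb stood at 307 CPM against 544 and at 707 against 1491, ratios of 0.564 and 0.474. Of the immediate early list, 4 of 23 genes tested were lower in the ApoE library and 6 of 21 in the DKO library and none higher, with medians of -0.27 and -0.36. Small heat shock proteins had 2 of 5 and 3 of 6 higher and none lower, with medians of 0.57 and 0.53. Most immediate early genes were thus not called against the neighbours, and Atf3 stood just above 1 in both libraries.

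The 2 libraries were also set side by side within cluster 11 and within the other SMC. Within the cluster 232 of 2086 genes were higher in the DKO library (11.1%) and 178 lower (8.53%); in the other SMC 218 (7.16%) and 190 (6.24%) of 3043. Genotype, mice, dissection and library cannot be told apart here, and depth differed by library as given above. Hspb1 had a DKO over ApoE ratio of 1.36 in the cluster and 1.31 in the other SMC, and Gadd45g 1.16 and 1.18. The inducible chaperones Hspa1b, Dnajb1 and Hspa1a were among the 8 named genes with the lowest ratios. Hspa1b had 0.219 in the cluster (0.167 in the other SMC), Dnajb1 0.234 (0.192) and Hspa1a 0.318 (0.262). Abra had 0.347 (0.310) and Ankrd1 0.377 (0.434). In the HSF1-induced list 8 of 19 tested genes were lower and 3 higher in the cluster (median log2 -0.46). In the other SMC 10 of 19 were lower and 0 higher (median log2 -0.56). Hspa1b, Dnajb1 and Hspa1a were thus lower in the DKO library in both populations, while 3 genes of the list were higher in the cluster.

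**Figure D4:**
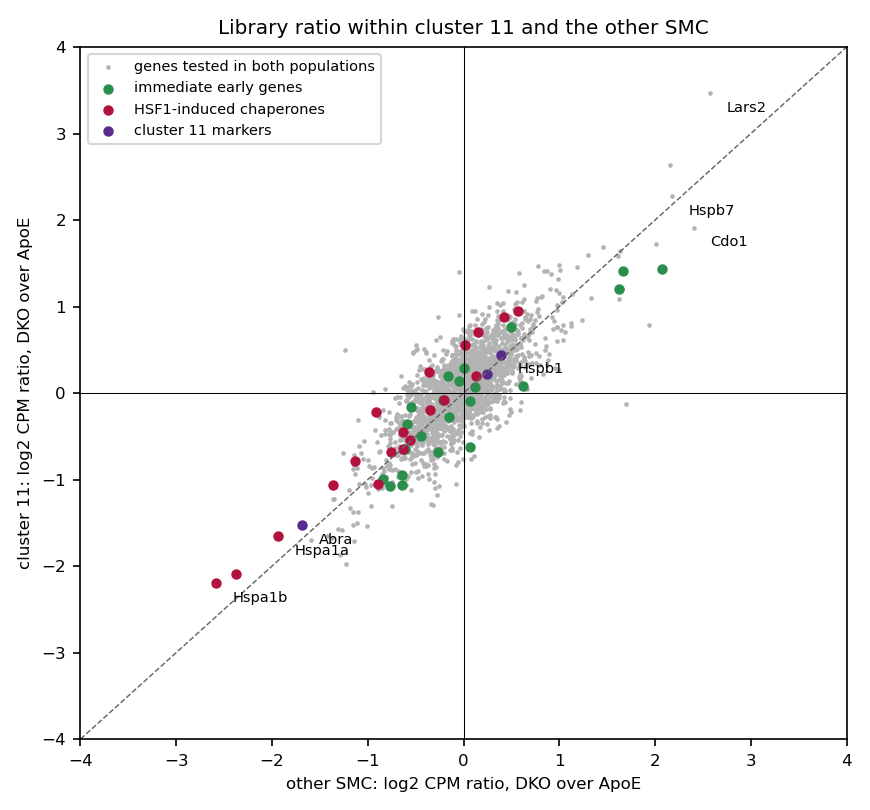
Log2 CPM ratio of the DKO over the ApoE library in cluster 11 (y axis) against the same ratio in the other SMC (x axis), 1 point per gene tested in both populations, with 3 lists in colour and equality dashed. Hspa1b, Hspa1a and Abra lie low on both axes near equality, and Lars2 lies above it, at a ratio of 11.1 in the cluster and 5.96 in the other SMC.

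Of the other genes with the lowest ratios, Atp5md (0.305 in the cluster, 0.453 in the other SMC) and Atp5k (0.307, 0.332) encode subunits of the mitochondrial ATP synthase. Olfr1033, annotated as an olfactory receptor, had 0.333 and 0.416. At the other end, Lars2 stood at 35.8 CPM in ApoE and 395 in DKO cluster 11, a ratio of 11.1 (7.53 to 16.7) against 5.96 in the other SMC. Hspb7, a small heat shock protein of striated muscle, had 4.84 (4.51), Cdo1, the cysteine dioxygenase, 3.76 (5.29), and Cox5a, a subunit of cytochrome c oxidase, 3.23 (2.75). Rras, a Ras-related GTPase, had 3.02 (2.47), Eva1b 2.998 (3.048), Ppp1r15a, which restores translation after stress, 2.80 (2.00), and Nol7 2.78 (1.72). All 8 were also above 1 in the other SMC. Of all genes tested, 11.1% were higher and 8.53% lower in the cluster, and 7.16% and 6.24% in the other SMC. The unfolded protein response list had 5 of 12 tested genes higher and 1 lower in the cluster (median log2 ratio 0.61), and 3 of 13 higher and 0 lower in the other SMC (0.44). Immediate early genes had 4 of 23 tested higher and 7 lower (-0.16), and 4 of 22 and 6 in the other SMC (-0.02). Extracellular matrix genes had 3 of 28 tested higher and 0 lower in the cluster (0.11), and 1 of 29 and 5 in the other SMC (-0.21). The matrix genes higher in the cluster were thus near the share of all genes. With cells of 3000 to 6000 UMIs, 17 of the ApoE and 92 of the DKO library, 87 genes were called higher and 73 lower in the cluster. The medians of these cells were still apart, at 5401 and 3812 UMIs, so depth was not matched between the libraries.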

How the data were processed

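Aortic cells of 2 libraries, 1 per genotype, were measured by droplet 3′ single-cell RNA sequencing (10x v2 chemistry, per the labels' protocols). The deposited table holds raw UMI counts of 14714 genes in each cell. Cell Ranger, Seurat and the build mm10 are named in the submitters' processing notes, without versions or a gene annotation. The protocol names CD31 microbeads while the label gives all cells. The authors also deposited the mitochondrial ratio of each cell, a fraction, and labels of other kinds (class, cluster numbers, library). The cell entries numbered 10345, of which 2428 were identical second copies of ApoE barcodes and were dropped, leaving 2428 ApoE and 5489 DKO cells. The lowest deposited total was 500 UMIs before the gene filter.

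Per population, UMIs of all cells were added up and expressed per 1000000 (CPM). Cluster 11 held 866832 UMIs in the ApoE and 478003 in the DKO library, the other SMC 7753222 and 5097396. Ratios carry exact conditional binomial intervals, shares Clopper-Pearson and sums Poisson intervals. List medians use members with at least 20 UMIs. The named genes were the markers, up to 12 in each direction called in both libraries, up to 5 in each direction called in 1 library and on the other side of 1 in the other, the 8 highest and 8 lowest between libraries, and up to 4 per list; the rankings passed over sex-linked, predicted, immunoglobulin, haemoglobin, ribosomal and mitochondrial genes, and others are named as chosen after their values were seen, such as those against the coarser cluster. The members, 26 gene lists and 14 marker lists were chosen with earlier results of these data known, and the lists and shares put first were chosen from all of them after their values were seen. Gene positions are from GENCODE on GRCm38, the build of mm10, and promoters from RefSeq. Abra, Hspa8 and Hbegf had no promoter in the table. The rule was tested on simulated data. Alternatives were depth filters, thinning, scaling, weighting, the minimum level, the ratio and the reference cells. Python 3.11.15, numpy 2.4.6, scipy 1.17.1, pandas 2.3.3 and matplotlib 3.10.9 were used. Some genes that met these rules are not reported here.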

Additional observations from a re-analysis of the deposited data

How the results depend on the processing

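No paired analysis was possible because there was 1 library per genotype, and no library could be left out for the same reason. The 12 named genes higher in both libraries stayed above 1 in both under all 8 settings that gave gene values. They had been chosen for ratios of at least 1.5, so this describes them and is no test. Against the coarser cluster 2 of the 12 were still called higher in the ApoE library and 8 in the DKO library. Counts of called genes moved most with the threshold; below they are in the order higher in the ApoE library, lower in it, higher in the DKO library, lower in it. They were 138, 384, 245 and 252 with at least 20 UMIs and no CPM minimum (31 lower in both) and 1, 6, 14 and 18 at a ratio of at least 2 (1 higher and 0 lower in both). Between the libraries in cluster 11, genes higher and lower in DKO were then 609 and 326, and 47 and 47. With cells thinned to 1000 UMIs, 69 were lower in the ApoE library and 7 in both, and 27 and 45 were higher and lower between the libraries. The ApoE marker median was then 0.37. Lower ApoE genes were 57 without mitochondrial and ribosomal genes. With the mean of each cell's CPM, 89 were lower in the ApoE library, 99 in the DKO library and 13 in both, and with clusters weighted equally 78, 98 and 13. At matched depth, 70 were higher and 59 lower in the ApoE library, the ApoE marker median was 0.62, and AY036118 in the ApoE library turned to 0.067 on the log2 scale. Between the libraries, cells of 3000 to 6000 UMIs gave 87 higher and 73 lower, at medians of 5401 ApoE and 3812 DKO UMIs, which this range did not bring together. Against the coarser cluster, 114 were lower in the ApoE and 104 in the DKO library, 6 higher and 12 lower in both, and the ApoE medians were 0.45 for the markers and 0.16 for the HSF1-induced chaperones. The difference in cluster size, DKO minus ApoE, turned from -3.30 to 0.94 percentage points of SMC cells (8.37% and 9.31%) and from -1.50 to 2.41 points of all cells (DKO 7.55%) when shallow or mitochondria-rich cells were left out. The gap in the share of cells with Hspb1, cluster 11 minus other SMC, went from 24.6 points to 13.6 without thinning and 15.6 at 2000 UMIs in the ApoE library, and from 20.7 to 36.1 without thinning in the DKO library. Gaps of sparse genes turned to -0.27 for Abra and -0.38 for Rcan1 in the DKO library at 500 UMIs and to -0.87 for Casq1 in the ApoE library at 2000 UMIs. Except where the setting itself changes the cells or the threshold, the cause was not tested. The ranges of depth within each library were narrowed after the first ranges had left the medians apart; all depth ranges and the coarser cluster were chosen after seeing the data.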
